A study of Chlorocebus sabaeus with 10 samples.

Results

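The miR-99, miR-100 and miR-125 miRNAs were examined in livers of female vervet monkeys (Chlorocebus sabaeus), an African monkey used as a model of human metabolism. Members were chosen by name, by a rule that used no measured value, though with earlier results of these data known. They comprised 8 of the 2588 mature miRNA names in the deposited count table: hsa-miR-125a-5p, hsa-miR-125b-5p, hsa-miR-99a-5p, hsa-miR-99b-5p, hsa-miR-100-5p and the 3p products hsa-miR-99a-3p, hsa-miR-99b-3p and hsa-miR-100-3p. The table gives human names, and the prefix is mostly left out below. These names occupied 9 of its 2948 rows, because miR-125b-5p is listed once for each of its 2 hairpins. The labels describe 5 animals fed a high fructose (HFr) diet and 5 fed chow. According to the study's methods, all of them had eaten chow before the study. Small RNA from flash frozen liver was sequenced.

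The study compared miRNAs between HFr and chow livers to explore how the response to the HFr diet may be regulated. For the miR-99, miR-100 and miR-125 miRNAs this could not be examined, since each library column is headed by a running number only and its diet is not known. All values below are reads pooled over the libraries of both diets, taken from the authors' total. The library columns were not used, so spread between animals is not given, nothing was tested between groups, and a pooled value can differ from that of any single animal. Intervals are 95% intervals of counting error alone. The pool held 2043164 reads when each mature name was counted once, and 680 names (26.3%) had at least 1 read. miR-122-5p, the defining miRNA of hepatocytes, held 45.2% of these reads.

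A miRNA hairpin is cut into a product from its 5p arm and one from its 3p arm, and usually one of them is loaded into the silencing complex while the other is degraded. In mammals the hairpins of this group lie in 3 conserved clusters, each with a miR-99 or miR-100 hairpin, a let-7 hairpin and a miR-125 hairpin. The clusters are mir-99a with let-7c and mir-125b-2, mir-100 with let-7a-2 and mir-125b-1, and mir-99b with let-7e and mir-125a. miR-99a-5p, miR-99b-5p and miR-100-5p share a seed, the stretch that pairs with target messenger RNAs, and are known to repress MTOR, the kinase that couples nutrients to growth. miR-125a-5p and miR-125b-5p share a different seed and are the vertebrate relatives of lin-4, which controls developmental timing in Caenorhabditis elegans. Within each seed group the mature miRNAs differ by few bases, so that a read with an error or a trimmed end can be assigned to a relative.

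All 8 members had at least 10 reads, a level reached by 403 of all names (15.6%). Of the 8, 5 had at least 100 reads, a level reached by 204 of all names (7.88%). Together the members had 10896 reads, or 0.533% of the pool (Wilson interval 0.523 to 0.543%). The 5 members from 5p arms contributed 98.6% of the members' reads, and the 3 members from 3p arms had 151 reads in all. This share depends on the list, which leaves out the 3p arms of the miR-125 hairpins. Those had 185 (miR-125b-2-3p), 11 (miR-125b-1-3p) and 3 reads (miR-125a-3p). Both miR-125 members together had 7384 reads, and the 3 members from the 5p arms of miR-99 and miR-100 hairpins had 3361, a ratio of 2.20 (exact binomial interval 2.11 to 2.29).

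miR-125b-5p was the most abundant member. hsa-miR-125b-5p had 5752 reads (exact Poisson interval 5604 to 5903), which placed it 37th of all names in the order of reads and made up 52.8% of the members' reads. Its relative hsa-miR-125a-5p had 1632 reads (interval 1554 to 1713) and was 64th. miR-125b-5p thus exceeded miR-125a-5p by 3.52-fold (interval 3.34 to 3.73), well beyond counting error.

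The miR-99 and miR-100 members fell into a higher and a lower level. hsa-miR-100-5p had 1556 reads (interval 1480 to 1635), 69th in the order. hsa-miR-99a-5p had 1447 reads (interval 1373 to 1524), 72nd in the order. hsa-miR-99b-5p had 358 reads (interval 322 to 397), 130th in the order. The first pair lay close together, with 1.08 times as many reads of miR-100-5p as of miR-99a-5p, and the interval of 1.0004 to 1.16 only just left out equal counts. Each was several times more abundant than miR-99b-5p, by 4.35-fold for miR-100-5p (interval 3.87 to 4.89) and by 4.04-fold for miR-99a-5p (interval 3.60 to 4.55). miR-125a-5p and miR-100-5p, which are neighbours in the order of the members, could not be separated by counting error, since their ratio was 1.05 (interval 0.978 to 1.12).

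**Figure D1:**
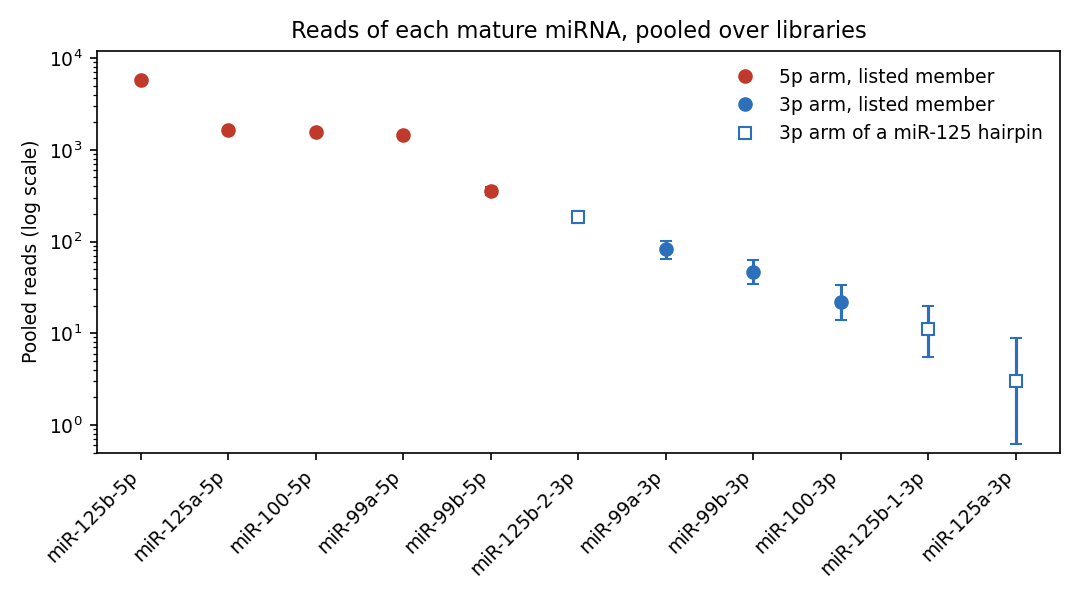
Pooled reads (log scale) of the 8 members (filled circles) and of the 3p arms of the miR-125 hairpins (open squares), in order of abundance. Bars are exact Poisson 95% intervals and cover counting error only. miR-125b-5p stands highest at 5752 reads, miR-125a-5p, miR-100-5p and miR-99a-5p lie between 1447 and 1632, and the 3p products reach at most 185.

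Set among all miRNAs of the livers, the 5p members lay between the 80.9th and the 94.6th percentile of the 680 detected names. miR-125b-5p stood just below let-7d-5p (5815 reads, interval of the ratio 0.975 to 1.05) and above miR-22-3p (5426 reads), which it exceeded by 1.06-fold with a lower bound of 1.02. miR-125a-5p stood between miR-379-5p (1712 reads) and miR-107 (1616 reads). miR-100-5p stood between miR-335-5p (1566 reads) and miR-181b-5p (1514 reads). miR-99a-5p stood between miR-423-3p (1488 reads) and miR-15a-5p (1397 reads), and miR-99b-5p between miR-423-5p (359 reads) and miR-142-5p (348 reads). For these last 4 members the ratio to each named neighbour had an interval that included equal counts. The neighbours were picked as the next names in the order of reads, so nearly equal counts follow from that choice. Likeness here means a similar pooled count and nothing more, since no pattern across animals could be compared.

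The miR-10 miRNAs resemble the miR-99 and miR-100 members in sequence and were set beside them for that reason. miR-10a-5p had 3065 reads, 1.97 times as many as miR-100-5p (interval 1.85 to 2.10). miR-10b-5p had 310 reads, and its ratio of 0.866 to miR-99b-5p had an interval of 0.741 to 1.01. miR-10b-5p thus lay near the lowest 5p member, and miR-10a-5p lay above each of the miR-99 and miR-100 members.

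miR-125b-5p is often placed among miRNAs of stellate cells and fibroblasts. In the pooled livers, markers of that cell type were higher than any member, with 42313 reads of miR-143-3p and 22258 of miR-199a-3p, whereas miR-214-3p, another such marker, had 711. The endothelial miR-126-3p had 20344 reads, the red blood cell miR-451a 2366, the leukocyte markers miR-142-3p and miR-223-3p 1242 and 694, and the biliary miR-200b-3p 763. All 9 markers looked at, miR-122-5p among them, were thus present. Which of these cells gave the reads of the members was not measured, and a pooled count cannot tell few cells rich in a miRNA from many cells poor in it.

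Cluster partners were compared next, since the hairpins of a cluster can be made from one transcript. By the reads credited to each name, the miR-125 product had more reads than the miR-99 or miR-100 product in each of the 3 clusters. For the mir-100 cluster this direction turned, to a ratio of 0.207, when miR-125b-5p was divided between its hairpins as described below. miR-125b-5p exceeded miR-99a-5p by 3.98-fold (exact binomial interval 3.75 to 4.21). The same miR-125b-5p reads exceeded those of miR-100-5p by 3.70-fold (interval 3.49 to 3.91). miR-125a-5p exceeded miR-99b-5p by 4.56-fold (interval 4.06 to 5.13).

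The first 2 of these ratios use the same reads. The rows of miR-125b-5p at mir-125b-1 and mir-125b-2 held 5752 and 5750 reads, a difference of 2, as would be found if nearly every read were credited to both hairpins. The table therefore does not tell which cluster made a read of miR-125b-5p. When miR-125b-5p was set against miR-99a-5p and miR-100-5p together, a comparison chosen after seeing the data, the ratio was 1.92 (interval 1.83 to 2.002). On that basis the miR-125 product was still the more abundant, but by less than the 4.56-fold between miR-125a-5p and miR-99b-5p, whose hairpins each have a mature name of their own, and the intervals did not overlap.

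The 3p arms do carry separate names, miR-125b-1-3p and miR-125b-2-3p, and they differed strongly. miR-125b-2-3p had 185 reads and miR-125b-1-3p had 11, a ratio of 16.8 (interval 9.18 to 34.3). If the reads of miR-125b-5p are divided in the same proportion, 5429 go to mir-125b-2 and 323 to mir-125b-1. The ratio to miR-99a-5p is then 3.75, and that of miR-125b-5p to miR-100-5p becomes 0.207, so that its direction turns round. This division rests on 11 reads of miR-125b-1-3p. It assumes that both hairpins keep equal shares of their 3p arm, which was not tested. Their cluster partners mir-99a and mir-100 had unequal 3p shares, of 5.36% and 1.39%.

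**Figure D2:**
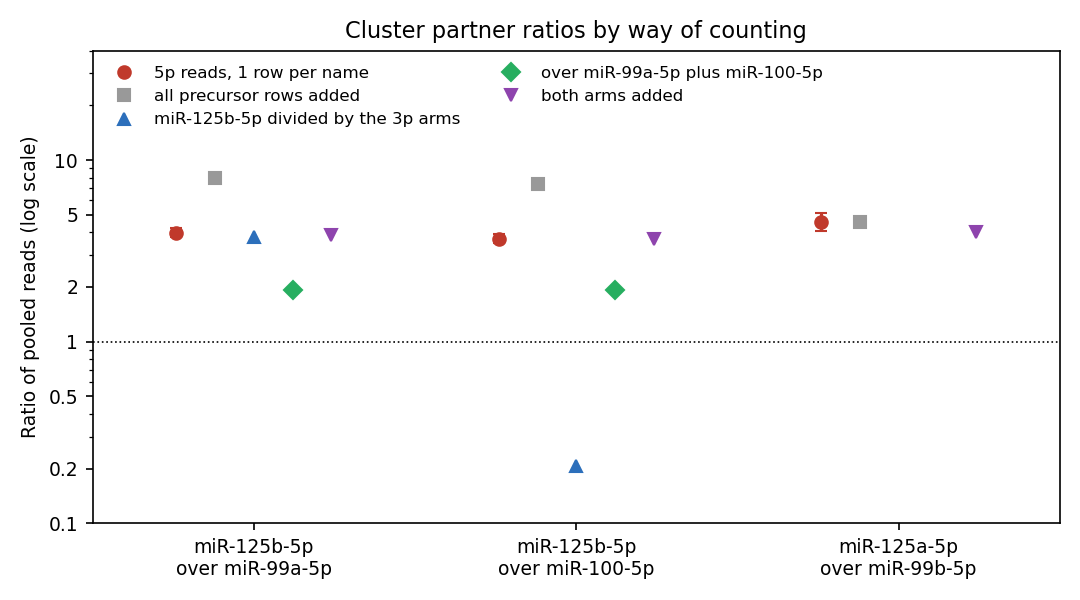
Ratio of pooled reads (log scale) of the miR-125 product to its miR-99 or miR-100 cluster partner, under the ways of counting named in the legend. Bars on the red points are exact binomial 95% intervals, and the dotted line marks equal counts. The ratio to miR-100-5p is the one that crosses this line, at 0.207 when miR-125b-5p is divided by the 3p arms of its hairpins.

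The let-7 product was the most abundant member of every cluster by the reads credited to its name. let-7 miRNAs promote differentiation and are known to repress insulin and growth factor signaling genes. let-7c-5p, made by a single hairpin, had 21435 reads, 14.8 times as many as miR-99a-5p (interval 14.0 to 15.6) and 3.73 times as many as miR-125b-5p (interval 3.62 to 3.84). let-7e-5p, also of a single hairpin, had 3811 reads, 10.6 times as many as miR-99b-5p (interval 9.55 to 11.9) and 2.34 times as many as miR-125a-5p (interval 2.20 to 2.48). The order of let-7 over miR-125 over miR-99 thus held in the mir-99b cluster, and in the mir-99a cluster by the reads credited to miR-125b-5p, which mir-125b-1 also gives. let-7a-5p had 124454 reads against 1556 of miR-100-5p, but 3 hairpins give let-7a-5p and the part from let-7a-2 is not known.

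The minor 3p products ordered the clusters differently from the 5p products. miR-99a-3p had 82 reads (exact Poisson interval 65.2 to 101.8), miR-99b-3p had 47 (interval 34.5 to 62.5) and miR-100-3p had 22 (interval 13.8 to 33.3). Although the 5p products of mir-99a and mir-100 were nearly level, miR-99a-3p exceeded miR-100-3p by 3.73-fold (interval 2.31 to 6.27). miR-99b-3p, from the hairpin with the fewest 5p reads, exceeded miR-100-3p by 2.14-fold (interval 1.26 to 3.72).

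This gap between the mir-99a and the mir-100 cluster ran through all 3 hairpins. The 3p arms were at 82, 14 and 185 reads for mir-99a, let-7c and mir-125b-2, against 22, 1 and 11 reads for mir-100, let-7a-2 and mir-125b-1. Summed, the mir-99a cluster had 281 reads on its 3p arms and the mir-100 cluster 34, a ratio of 8.26 (interval 5.78 to 12.2). The ratio for the let-7 arms alone, 14.0, rests on a single read of let-7a-2-3p and had an interval of 2.13 to 592. Reads of let-7a-3p, 304 in all, are listed at let-7a-1 and let-7a-3 and belong to neither cluster.

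In the mir-99b cluster the 3p arms reversed the order of the miR-99 and miR-125 products. miR-125a-3p had 3 reads (interval 0.619 to 8.77) and miR-99b-3p had 47, a ratio of 0.0638 (interval 0.0127 to 0.198), while on the 5p arms the miR-125 product was the higher. let-7e-3p had 2 reads. In the mir-99a cluster the miR-125 product was the higher on the 3p arms. There miR-125b-2-3p exceeded miR-99a-3p by 2.26-fold (interval 1.73 to 2.96). On the 5p arms of this cluster the miR-125 product was the higher by the reads credited to miR-125b-5p, which mir-125b-1 also gives. In the mir-100 cluster the ratio of miR-125b-1-3p to miR-100-3p was 0.5, with an interval of 0.219 to 1.08 that includes equal counts.

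**Figure D3:**
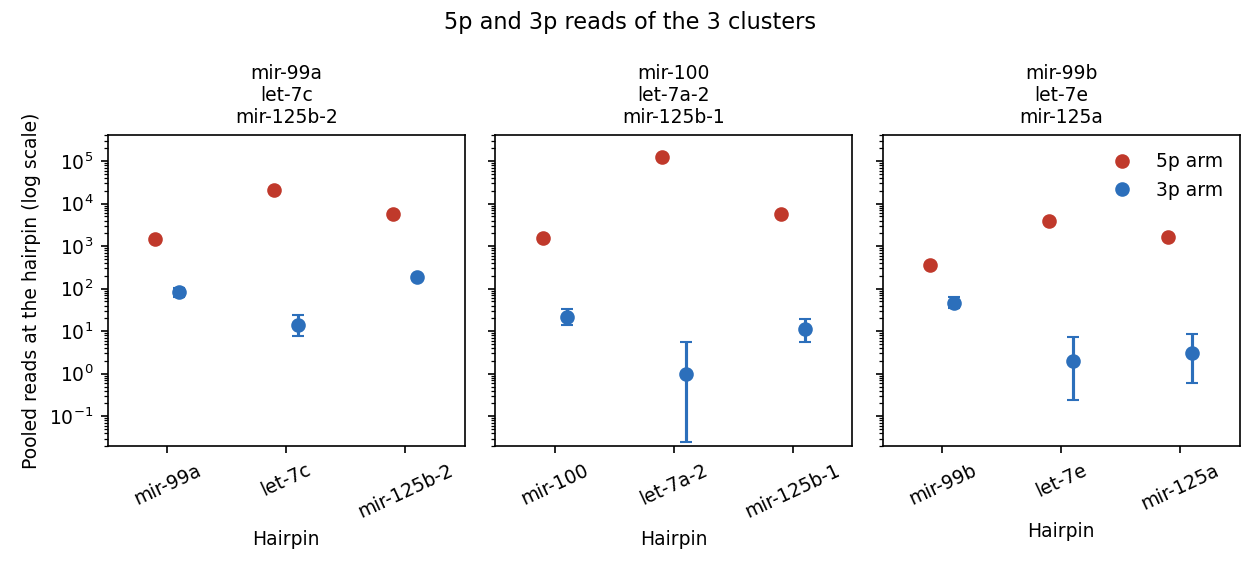
Pooled reads (log scale) of the 5p arm (red) and the 3p arm (blue) at each hairpin of the 3 clusters, one cluster per panel. Bars are exact Poisson 95% intervals. The 3p arms of the first cluster lie at 82, 14 and 185 reads and those of the second at 22, 1 and 11, while miR-99a-5p and miR-100-5p lie at 1447 and 1556. Reads of miR-125b-5p and let-7a-5p are credited in full to each of their hairpins.

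As a share of each hairpin, the 5p arm prevailed in all 6 hairpins of the members, to different degrees. mir-99b was the least one-sided, with 88.4% of 405 reads on the 5p arm (Wilson interval 84.9 to 91.2%). mir-99a followed with 94.6% of 1529 reads (interval 93.4 to 95.7%) and mir-100 with 98.6% of 1578 reads (interval 97.9 to 99.1%). The intervals of these 3 hairpins did not overlap, so the minor arm took 11.6%, 5.36% and 1.39% of the reads in mir-99b, mir-99a and mir-100.

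Of the miR-125 hairpins, mir-125b-2 had 96.9% on the 5p arm (interval 96.4 to 97.3%), which lay between mir-99a and mir-100. The share was 99.8% in mir-125b-1 (interval 99.7 to 99.9%) and 99.8% in mir-125a (interval 99.5 to 99.9%). The values of the mir-125b hairpins credit all reads of miR-125b-5p to each of them, so the true share of the 5p arm can only be lower. Of 179 hairpins that had names for both arms and 100 or more reads, 100 had more reads on the 5p than on the 3p arm. Their median 5p share was 99.2%, with quartiles at 92.1% and 99.8%. Of these 100 hairpins, 17 had a lower 5p share than mir-99b, 28 than mir-99a, 35 than mir-125b-2, 43 than mir-100, 71 than mir-125b-1 and 72 than mir-125a. mir-99a, mir-99b, mir-100 and mir-125b-2 thus lay below the median of 5p-dominant hairpins and mir-125b-1 and mir-125a above it. For mir-125b-1 this rests on crediting it with all reads of miR-125b-5p. Dividing these reads by the 3p arms gives both mir-125b hairpins the same 5p share by construction. That share, 96.7%, is set by the division and not measured. It lies below the median, which was taken with shared names credited in full. Hairpins of one mature name share its reads and are not independent, so this is a description without a test.

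**Figure D4:**
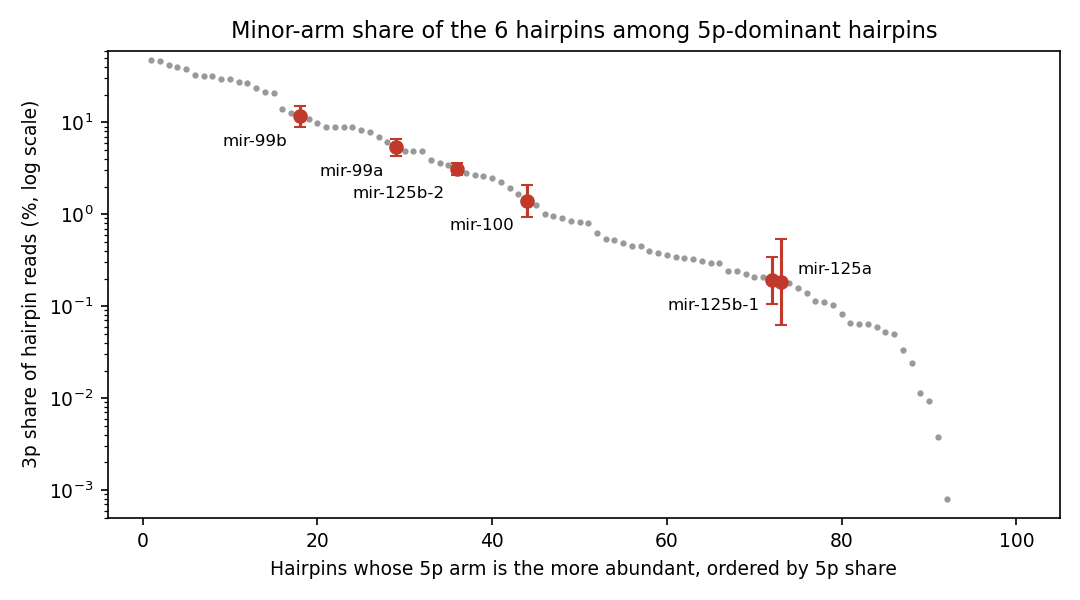
Share of hairpin reads on the 3p arm (percent, log scale) for the 100 hairpins with more reads on the 5p arm and at least 100 reads, ordered by 5p share. Red points are the 6 hairpins of the miR-99, miR-100 and miR-125 members with Wilson 95% intervals, and grey points the others. The 3p share runs from 11.6% in mir-99b to 0.183% in mir-125a, and 8 hairpins with 0 reads on the 3p arm lie off the log axis.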

How the data were processed

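Small RNA libraries (Illumina TruSeq kit) from 5 HFr and 5 chow livers were sequenced on a GAIIx instrument. According to the study's methods, the authors quantified miRNAs with miRDeep2, and cutadapt 1.10 and Bowtie are listed in the submitters' processing notes. Neither the genome build nor the release of the miRNA database is stated in the sources used here. The deposited values used were raw read counts per mature miRNA and precursor, summed by the authors over all libraries. Names are human, so a vervet miRNA that differs from human can be undercounted, and kit ligation differs between miRNAs. Ratios therefore compare reads, not molecules. No molecular identifiers are named. The 20 columns of numbered libraries matched no sample and were not used, so depth per library is not given. On inspection 1 of the 10 raw columns held almost no reads.

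Where a name had several rows, only the largest total was used. Counts have exact Poisson, shares Wilson and ratios exact binomial intervals, each at 95%. They were tried on reads simulated at random from the pooled shares of names with at least 10 reads. That simulation followed the counting model that the intervals assume. It held no spread between animals and left out names with fewer reads. A count of 0 allows 3 reads, or 0.000147% of the pool. Named were the members, the other arms and let-7 products of their clusters, miR-10a-5p and miR-10b-5p, miR-122-5p, other cell type markers, and the names next to each 5p member in the order of reads. Members and lists were chosen with earlier results of these data known. The planned edgeR test of diet was not run. Positions are not reported. Python 3.11.15, numpy 2.4.6, pandas 2.3.3, scipy 1.17.1 and matplotlib 3.10.9 were used.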

Additional observations from a re-analysis of the deposited data

How the results depend on the processing

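Summing reads over precursors gave the 8 members 0.624% of all reads in place of 0.533%, because miR-125b-5p was then counted at both hairpins, and it set the ratio of miR-125b-5p to miR-99a-5p at 7.95 and to miR-100-5p at 7.39. Leaving miR-122-5p out of the denominator gave 0.972%. Counting names with identical rows once left the share of each of the 8 members within its counting interval. Summing over precursors left 2 of the 8 within it, and leaving out miR-122-5p left 0. Dividing miR-125b-5p by the 3p arms reversed its ratio to miR-100-5p, to 0.207, and by construction set the 5p share of both mir-125b hairpins at 96.7%. Setting it against miR-99a-5p plus miR-100-5p, chosen after seeing the data, gave 1.92. Adding both arms set the ratio of miR-125a-5p to miR-99b-5p at 4.04. These shifts follow from which reads each way of counting adds or divides. All 8 members stayed detected at a minimum of 10 reads. No paired analysis was possible because no library could be tied to an animal. The design held no pairs either, since the study's methods state that different females were fed chow and HFr. Library columns that match no label were not used, so leaving out each of them was not run. The weight of any 1 library in a pooled value is therefore not given. Depth limits the 3p arms most, with 3 reads of miR-125a-3p and 1 of let-7a-2-3p.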
